A study of Rattus norvegicus with 23 samples.

Results

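The 7 genes described here belong to the renin-angiotensin system: angiotensinogen (Agt), angiotensin-converting enzyme (Ace), the type 1 receptors (Agtr1a and Agtr1b), the type 2 receptor (Agtr2), the type 1 receptor-associated protein (Agtrap) and the Mas receptor (Mas1). Members were all probe sets whose only gene symbol in the platform annotation was one of these, which gave 11 of the 31099 probe sets measured. In all, 20832 probe sets carried a single symbol, covering 14218 distinct symbols. Transcripts were measured in the rat area postrema, a medullary circumventricular organ, on Affymetrix Rat Genome 230 2.0 arrays, and by its title the series addresses hypertension, thirst and hunger. Each of the 23 arrays was hybridised with RNA pooled from 5 male rats. SHR, the inbred spontaneously hypertensive strain, had 5 arrays, and WKY, the Wistar Kyoto strain commonly used as its normotensive comparison, had 5, both from animals aged 10 to 13 weeks. Sprague Dawley animals aged 10 to 12 weeks supplied 4 arrays after 72 h of dehydration, 5 arrays after 48 h of food restriction (called fasted here) and 4 control arrays. No transgene or drug is named in the labels for any group.

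Angiotensinogen is cleaved by renin and then by Ace to angiotensin II, a peptide that raises blood pressure and drives thirst. In the brain most angiotensinogen is made by astrocytes, and the area postrema, which has a leaky blood-brain barrier, is one of the sites where circulating angiotensin II reaches neurons. The type 1 receptors carry most actions of the peptide, the type 2 receptor and Mas are commonly described as opposing them, and Agtrap binds the type 1 receptor and promotes its internalisation.

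In SHR, 3 member probe sets were higher than in WKY: the single one for Agtr1b, 1.77-fold, and both for Agtrap, 2.25-fold and 3.64-fold, all after 16 was added to each signal. No member was called lower in SHR, though Mas1 lay just outside the threshold on the lower side. In dehydrated rats Mas1 was 1.47-fold lower than in control rats and was the only member called, and that call was lost under most other settings of the analysis. Fasted and control rats did not differ at any member past the threshold, nor did dehydrated and fasted rats. Agt, Ace and Agtr1a passed in none of the 4 comparisons, and Agtr2 was too dim to be tested in any of them.

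Promoter sequence is shown for Agtr1b and Agtrap because their probe sets were the members called between the strains. It comes from the RefSeq table for the assembly GRCr8, whose animal was neither an SHR nor a WKY rat, so that strain differences are not visible in it. The table held 6 of the 7 members (Agt was not among them). Both stretches are the 250 bases before the annotated start, printed 5′ to 3′ on the strand of the gene, which is the minus strand for both. Agtr1b lies before its start at chr2:104849263-104849512 and Agtrap at chr5:163802175-163802424. Capitals mark matches on either strand to the core promoter string TATAAA, the E-box string CACGTG, the Sp1-type string GGGCGG, the CCAAT box, the cAMP response string TGACGTCA, its leading part TGACG (held by every full match) or the steroid receptor string AGAACA. On the opposite strand CCAAT reads as ATTGG.
Agtr1b: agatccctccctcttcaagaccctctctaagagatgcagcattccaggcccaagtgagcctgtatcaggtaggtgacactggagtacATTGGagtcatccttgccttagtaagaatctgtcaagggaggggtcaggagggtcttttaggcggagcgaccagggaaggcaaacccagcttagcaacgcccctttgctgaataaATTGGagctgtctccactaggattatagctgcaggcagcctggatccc
Agtrap: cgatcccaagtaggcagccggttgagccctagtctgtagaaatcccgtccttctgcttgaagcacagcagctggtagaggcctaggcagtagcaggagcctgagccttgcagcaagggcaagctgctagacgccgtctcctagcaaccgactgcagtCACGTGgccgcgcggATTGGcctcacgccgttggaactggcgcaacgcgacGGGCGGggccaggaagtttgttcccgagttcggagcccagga
The Agtr1b stretch held CCAAT at -163 and -48 from the start and none of the other letter strings. In Agtrap, CACGTG lay at -93, CCAAT at -78 and GGGCGG at -42. CCAAT was thus the one string found in both. The GC content was 52.8% for Agtr1b and 62.4% for Agtrap, against a median of 51.2% over the 33469 promoters searched. Of all these promoters 34.0% held CCAAT, 30.5% GGGCGG, 5.6% CACGTG, 12.9% TATAAA, 18.2% TGACG, 1.6% TGACGTCA and 17.5% AGAACA. These matches describe letters in a window and are not known binding sites.

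The deposited signals shared a scale, as every array averaged 100 after removal of 2% at each end. Array medians ran from 39.81 to 44.48, in array units, and on that shared scale they say little of how alike the libraries were. Signal at the 3' end of Gapdh relative to its 5' end, a log2 ratio that reflects RNA integrity and amplification, ran from 0.041 to 0.405 in SHR, 0.031 to 0.206 in WKY, 0.214 to 0.68 in dehydrated, 0.178 to 0.258 in fasted and 0.209 to 0.571 in control arrays. Markers of area postrema and solitary tract neurons were present in every group, with summed signals of 6 genes from 886 to 1215. Summed signals of 8 choroid plexus markers, a tissue that adjoins the area postrema, ran from 1261 to 1414 in SHR and 834 to 1028 in WKY, and much more widely in Sprague Dawley rats, from 1712 to 12166 in dehydrated, 1467 to 11093 in fasted and 1822 to 10068 in control arrays. The strain gap of that sum lay in Enpp2, at 1113 in SHR and 660 in WKY, while Ttr averaged 78.8 in SHR and 103 in WKY. The 10 microglial markers summed to 1576 to 2175 in SHR, below all WKY arrays at 2184 to 2464. In such bulk tissue, fewer cells of a type and less RNA per cell cannot be told apart. Pathway genes outside the 7 and cell markers were read at 1 probe set a gene.

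Of the 11 member probe sets, 7 passed the signal filter in the SHR and WKY fit and 7 in the Sprague Dawley fit, but not the same 7. These came from 6 genes in the first fit and 5 in the second, so counts of members tested are counts of probe sets. A second Ace probe set was bright enough only in Sprague Dawley rats, and Agtr1b only in the strain pair, where it was kept through its level in SHR. The same holds for both Agtrap probe sets between the strains: WKY means alone lay at percentile 29.9 of all probe sets for Agtr1b and at 19.9 and 38.2 for Agtrap, under the 40th percentile of the filter. The 3 calls between the strains thus come from members that the filter kept through the group where they are high, and their count is a description; all 3 also passed in a fit without the filter. Differences are given as log2(signal + 16), which understates ratios at low signal, and adjusted p-values are from limma with the Benjamini-Hochberg adjustment over all 18625 probe sets tested. Between the strains 3 of the 7 passed, all higher in SHR, where 5.06% of all tested probe sets passed. An unadjusted p below 0.05 was reached by 3 higher and 1 lower member, against 17.2% of all tested. Non-overlapping arrays were likewise found at 3 higher and 1 lower member, against 6.33% of all tested. The median log2 difference was 0.09 over the members tested and 0.01 over all probe sets tested.

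**Figure D1:**
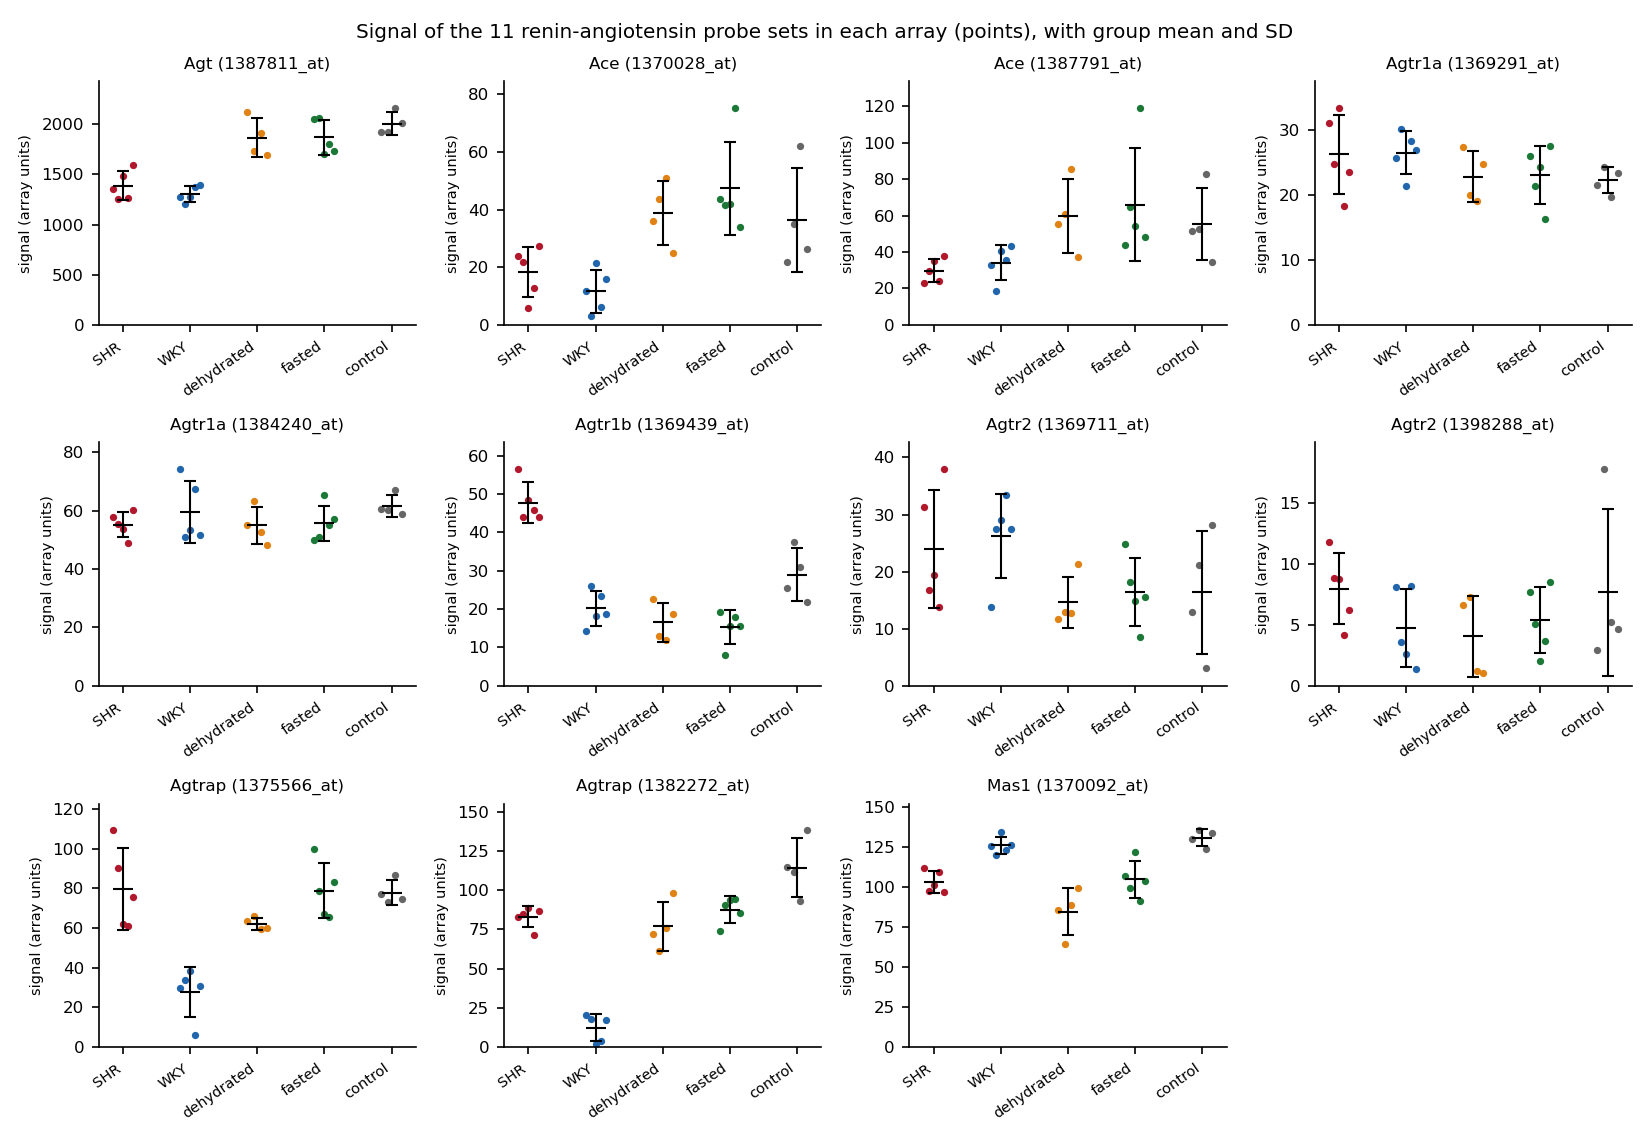
Signal in array units (vertical axes, from 0) of the 11 member probe sets in each array, by group; points are arrays, long bars the group mean and short bars 1 SD. Agtr1b and both Agtrap probe sets stand higher in all 5 SHR arrays than in all 5 WKY arrays, and Mas1 lower in all 4 dehydrated arrays than in all 4 control arrays.

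Angiotensinogen, the precursor of all angiotensins, gave a strong signal in every array and differed little in each comparison. It ran from 1253 to 1591 in SHR and from 1207 to 1392 in WKY, and these ranges overlap. The log2 difference was 0.09 (SE 0.068, 95% interval -0.06 to 0.23, adjusted p = 0.578). Dehydrated arrays ran from 1696 to 2120, fasted arrays from 1708 to 2065 and control arrays from 1919 to 2167, so that all 13 Sprague Dawley arrays lay above all SHR and WKY arrays. The strains and the Sprague Dawley animals carry different label protocol texts, so strain and array set cannot be told apart, and no test was made between them. Dehydrated minus control was -0.11 (adjusted p = 0.629), fasted minus control -0.10 (adjusted p = 0.818) and dehydrated minus fasted -0.01 (adjusted p = 0.99). Summed signals of 9 astrocyte markers ran from 10721 to 13498 in SHR, 11050 to 13963 in WKY, 13836 to 16294 in dehydrated, 12641 to 15549 in fasted and 12872 to 15672 in control arrays, and their part in the levels of Agt was not tested. Agt averaged 1389 ± 146 in SHR, 1303 ± 78.1 in WKY, 1865 ± 195 in dehydrated, 1872 ± 174 in fasted and 2006 ± 117 in control arrays (SD; n = 5, 5, 4, 5 and 4, here and below). Ranked downwards the groups ran control, fasted, dehydrated, SHR and WKY, and only the step between dehydrated and SHR was larger than the spread of both neighbours.

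Ace, the peptidase that forms angiotensin II and degrades bradykinin, was dim in SHR and WKY arrays at both probe sets and moderate in Sprague Dawley arrays. As for Agt, strain and array set cannot be told apart here, and this was not tested. At the brighter probe set Ace averaged 29.7 ± 6.48 in SHR and 34.2 ± 9.75 in WKY, a log2 difference of -0.12 (SE 0.144, adjusted p = 0.744). Its second probe set averaged 18.3 ± 8.78 in SHR and 11.6 ± 7.42 in WKY, and lay below the filter. So the probe sets differed in sign between the strains and neither difference passed, the second with an adjusted p of 0.601 in an unfiltered fit. In dehydrated rats the brighter probe set averaged 59.8 ± 20.1 and in fasted rats 66.0 ± 30.8, against 55.4 ± 20.03 in control rats. The other averaged 38.9 ± 11.1 in dehydrated and 47.3 ± 16.1 in fasted rats, against 36.3 ± 18.1 in control rats. Log2 differences at the brighter probe set were 0.09 for dehydrated minus control (adjusted p = 0.925) and 0.17 for fasted minus control (adjusted p = 0.919). The second probe set gave 0.10 (adjusted p = 0.893) and 0.30 (adjusted p = 0.783).

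The highest Ace signals of the Sprague Dawley groups lay in 3 arrays. Dehydrated array 3 had 85.8 at the brighter Ace probe set and 50.9 at the other, fasted array 4 had 119 and 75.4, and control array 3 had 82.8 and 62.1. Each was the highest of its group at both Ace probe sets and also had the highest choroid plexus marker sum of its group, at 12166 in the dehydrated, 11093 in the fasted and 10068 in the control array. In the 4 dehydrated arrays the full order of the choroid sum and of both Ace probe sets was the same. Below the top array the orders differed in the fasted group at both probe sets and in the control group at the brighter one. In SHR and WKY arrays, where the choroid sums were low, the orders differed throughout. With the mean of the choroid plexus markers as a covariate, an alternative chosen after seeing the data, the brighter Ace probe set gave -0.09 for dehydrated minus control (adjusted p = 0.859) and 0.28 for fasted minus control (adjusted p = 0.633). Whether choroid plexus RNA accounts for these values was not tested further.

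**Figure D2:**
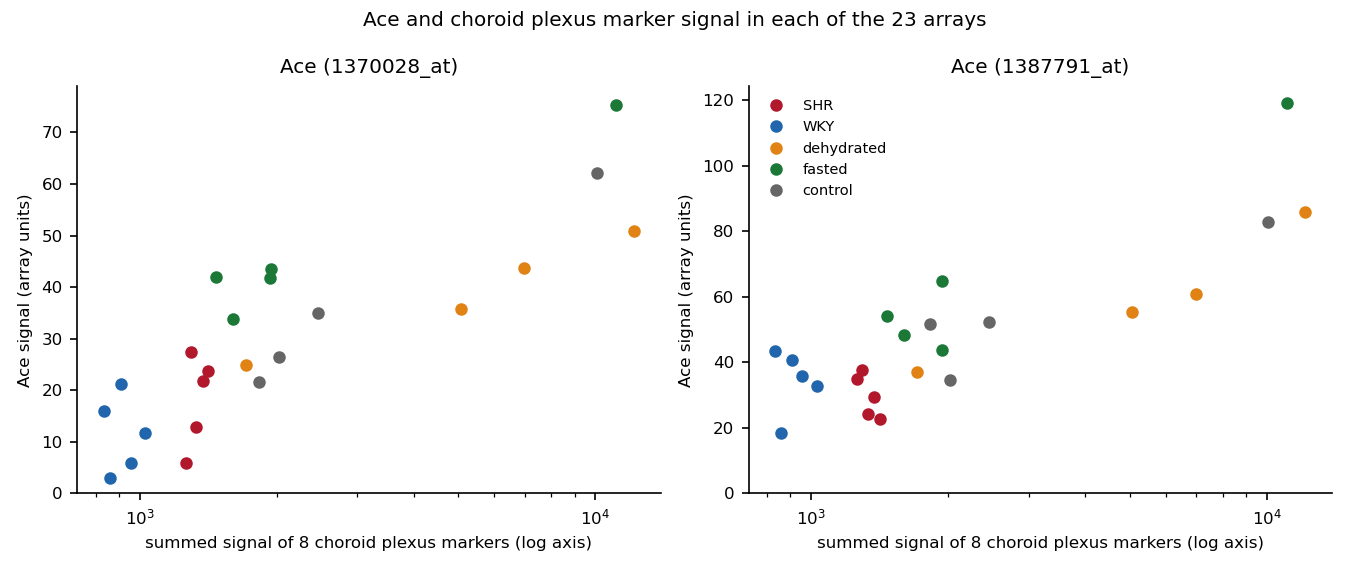
Ace signal in array units (vertical axis, 1 panel per probe set) against the summed signal of 8 choroid plexus markers (horizontal log axis) in each of the 23 arrays, coloured by group. In each Sprague Dawley group the array farthest to the right, at 12166, 11093 or 10068, is also the highest of its group for Ace.

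Agtr1a and Agtr1b are duplicate rodent genes for the type 1 receptor, and in rats Agtr1a is known as the main form in most brain regions and Agtr1b in the anterior pituitary and adrenal. Their coding sequences are similar and probe sequences were not used here, so any signal shared between them cannot be told apart. Agtr1b had 56.6, 43.9, 48.4, 45.9 and 44.0 in the 5 SHR arrays, against 14.3, 26.1, 18.3, 23.4 and 18.8 in the 5 WKY arrays. Every SHR array was above every WKY array, with a gap wider than the range within either group. The log2 difference was 0.82 (SE 0.11, 95% interval 0.59 to 1.06, adjusted p = 0.000114), or 1.77-fold, with the means at 47.8 ± 5.28 in SHR and 20.2 ± 4.64 in WKY. With 64 added in place of 16 the log2 difference was 0.41, and with 1 it was 1.23, so its size depends on that constant. An unfiltered fit also called it, and so did each alternative in which the probe set was tested.

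Agtr1a did not follow Agtr1b. At its brighter probe set the arrays ran from 48.8 to 60.1 in SHR and from 51.2 to 74.4 in WKY, and the groups overlapped. The log2 difference was -0.08 (SE 0.101, 95% interval -0.29 to 0.14, adjusted p = 0.765). Its dimmer probe set lay below the filter, at -0.02 (adjusted p = 0.977 in an unfiltered fit). Within each array the log2 value of Agtr1b minus that of the brighter Agtr1a probe set averaged -0.16 ± 0.134 in SHR and -1.06 ± 0.329 in WKY (SD, n = 5 each). These differed by 0.90 (two-sided exact permutation p = 0.00794, the smallest that the 252 splits allow), more than the spread between arrays. The same arrays had already given the Agtr1b call without overlap, so this p-value is no separate support for it. As probes differ in brightness, neither mean says which receptor gene is more abundant.

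In Sprague Dawley rats Agtr1b lay below the filter. It had 22.5, 12.9, 11.9 and 18.7 in dehydrated arrays, 19.3, 7.92, 15.5, 17.8 and 15.7 in fasted arrays, and 25.6, 37.4, 31.1 and 21.8 in control arrays. All 5 fasted arrays were below all 4 control arrays, while the dehydrated range reached into the control range. Of all tested probe sets 2.32% did not overlap between fasted and control arrays. In the unfiltered fit dehydrated minus control was -0.47 (adjusted p = 0.361) and fasted minus control -0.53 (adjusted p = 0.533), so neither difference passed. The 2 contrasts share the control arrays and are not independent. Means were 16.5 ± 5.03 in dehydrated, 15.2 ± 4.38 in fasted and 29.0 ± 6.81 in control rats. Ranked downwards over all groups the order was SHR, control, WKY, dehydrated and fasted, in which strain and array set cannot be told apart. The steps between SHR, control and WKY exceeded the SD of both neighbours, and the last 3 groups did not separate beyond their spread. Agtr1a varied little over the 5 groups, with means from 54.9 to 61.6 at the brighter probe set, and log2 differences of -0.13 for dehydrated minus control (adjusted p = 0.664), -0.12 for fasted minus control (adjusted p = 0.843) and -0.02 for dehydrated minus fasted.

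Agtr2, the type 2 receptor, which is abundant in the fetus and restricted in the adult, was below the filter at both probe sets in every comparison. One probe set averaged 23.9 in SHR, 26.2 in WKY, 14.6 in dehydrated, 16.4 in fasted and 16.3 in control arrays. The other averaged 7.94, 4.76, 4.04, 5.38 and 7.65 in the same groups. No neighbouring step in the order of these means exceeded the spread of the arrays. In the unfiltered fit SHR minus WKY was -0.10 (adjusted p = 0.895) at the first and 0.21 (adjusted p = 0.516) at the second. At such signals a difference was not detectable, which does not show that the receptor is absent.

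Mas1, a G protein-coupled receptor for a short angiotensin fragment, did not pass the threshold between the strains. It had 112, 97.3, 101, 109 and 96.7 in SHR arrays, against 125, 119.8, 134, 123 and 126 in WKY arrays. No SHR array reached the lowest WKY array. The log2 difference was -0.25 (SE 0.0714, 95% interval -0.40 to -0.10, unadjusted p = 0.00258, adjusted p = 0.0507). Over 20 alternatives the adjusted p ran from 0.0426 to 0.121 and passed in 5, so that the value sits at the edge of the threshold.

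Agtrap had the largest strain difference among the members. The probe set with the larger difference had 83.2, 84.9, 88.8, 71.6 and 86.8 in SHR arrays, against 20.4, 17.6, 2.06, 3.91 and 17.4 in WKY arrays. The lowest SHR array lay far above the highest WKY array, and 2 WKY arrays were near 0. Means were 83.0 ± 6.76 in SHR and 12.3 ± 8.59 in WKY, and the log2 difference was 1.87 (SE 0.176, 95% interval 1.49 to 2.24, adjusted p = 4.87e-06), or 3.64-fold. The size of this fold is set in part by the constant added to a WKY signal near the bottom of the range: with 64 in place of 16 the log2 difference was 0.95, still past the threshold. The second probe set had 109.8, 90.1, 62.2, 60.9 and 75.7 in SHR arrays, against 29.5, 33.7, 38.4, 6.10 and 30.5 in WKY arrays. Again no WKY array reached an SHR array, although the SHR arrays were more spread. Here the means were 79.7 ± 20.5 in SHR and 27.6 ± 12.5 in WKY, a log2 difference of 1.17 (SE 0.223, 95% interval 0.69 to 1.65, adjusted p = 0.00669), or 2.25-fold, and 0.65 with 64 added.

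The Agtrap probe sets moved together between groups more than within them. Their log2 values had a Pearson correlation of 0.84 over the 23 arrays and of 0.15 once group means were removed, given as a description. By group mean WKY was the lowest group at both. It lay below dehydrated, the next group up, by 64.7 at the first and 34.5 at the second, each wider than the spread of either neighbour. As for Agt, strain and array set cannot be told apart in this step, and it was not tested. At the first probe set the Sprague Dawley means were 77.0 ± 15.6 in dehydrated, 87.6 ± 8.47 in fasted and 114 ± 18.8 in control rats, and at the second 62.1 ± 3.11, 78.9 ± 13.9 and 77.8 ± 6.22. When 1 was added to the signal, not 16, the first probe set fell below the filter and the second no longer passed (adjusted p = 0.0572), and with the filter at the 60th percentile neither was tested.

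Markers of other cells also differed between the strains, where 8 of 62 tested passed, against 5.06% of all tested probe sets. Of 9 microglial markers tested all were negative in SHR minus WKY and 3 passed, C1qa, C1qc and Aif1. Among 9 fibroblast and meningeal markers 3 passed as lower in SHR, Col1a2, Igf2 and Fmod, and the sum of that list was 2561 to 3274 in SHR and 3542 to 4284 in WKY. Of 5 choroid plexus markers tested Enpp2 was higher in SHR and Cldn2 lower, at 26.8 against 47.5 in WKY, and 4 of the 5 differences were negative. The part of the microglial, fibroblast and choroid plexus markers in the member values was not tested. In each Sprague Dawley comparison 0 of the 63 markers tested from the 10 cell type lists passed in limma. Of the 63, 10 had an unadjusted p below 0.05 for dehydrated minus control, 6 for fasted minus control and 4 for dehydrated minus fasted. The shares over all tested probe sets were 11.7%, 7.19% and 10%, in that order.

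**Figure D3:**
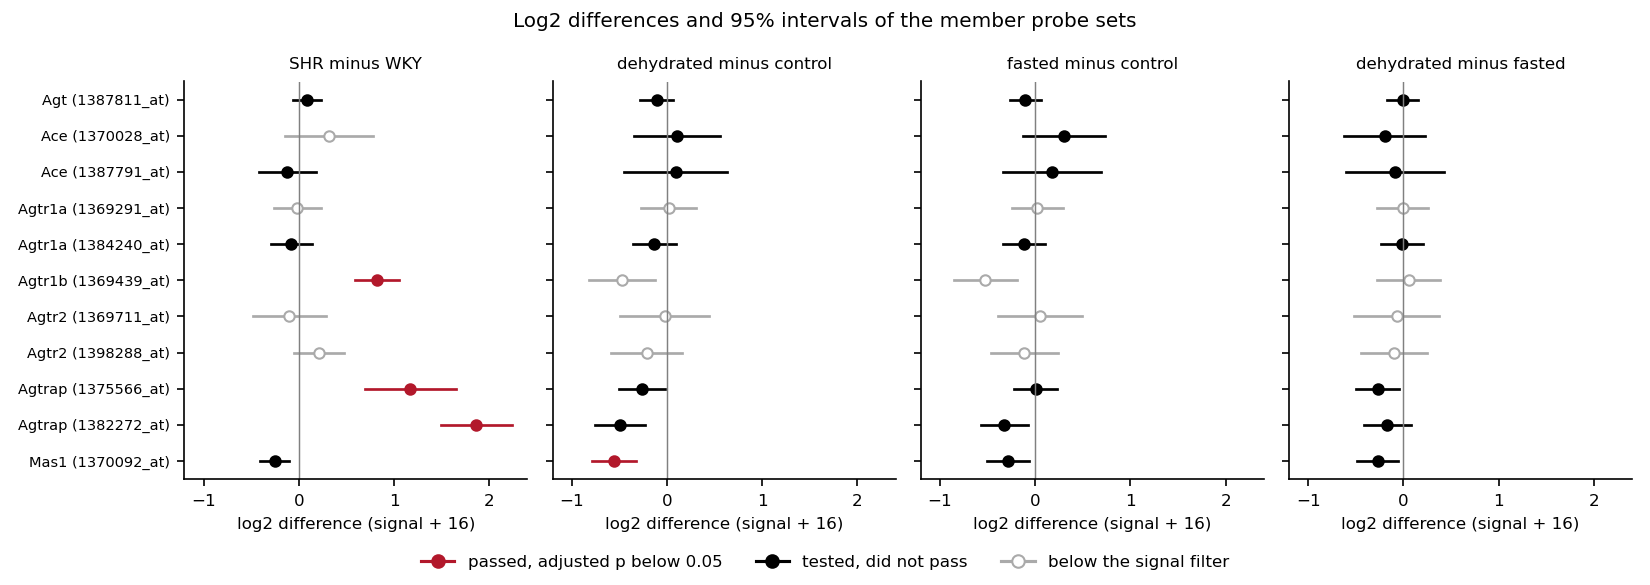
Log2 difference of signal + 16 (horizontal axis) with its 95% interval for each member probe set in the 4 comparisons; red passed at an adjusted p below 0.05, black was tested and did not pass, and open grey lay below the filter. The 3 red points of SHR minus WKY are at 0.82, 1.17 and 1.87, and the red point of dehydrated minus control is Mas1 at -0.56.

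In dehydrated against control rats 1 of the 7 member probe sets tested (5 genes) passed, lower in dehydrated rats. Of all tested probe sets 0.166% passed. An unadjusted p below 0.05 was reached by 3 member probe sets, Mas1 and both for Agtrap, all lower, against 11.7% of all tested. Arrays did not overlap at 2 member probe sets, both lower, against 6.68% of all tested. The median log2 difference was -0.13 over the members and -0.01 over all probe sets tested.

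The member that passed was Mas1, with 85.5, 64.5, 88.9 and 99.4 in dehydrated arrays, against 129.8, 135.8, 124 and 134 in control arrays. All dehydrated arrays lay below all control arrays, and dehydrated array 2 was the lowest of the 23. Means were 84.6 ± 14.6 in dehydrated and 131 ± 5.36 in control rats, a log2 difference of -0.56 (SE 0.11, 95% interval -0.79 to -0.33, adjusted p = 0.0402), or 1.47-fold lower. Over 19 alternatives the difference stayed between -0.64 and -0.40, but its adjusted p ran from 0.00462 to 0.25 and passed in 6. Leaving out any single control array, or dehydrated array 1, 2 or 3, ended the call. The 2 Agtrap probe sets were -0.26 (unadjusted p = 0.0321, adjusted p = 0.379) and -0.49 (unadjusted p = 0.000784, adjusted p = 0.128). The smaller of these differences came without overlap: 63.3, 65.9, 59.4 and 59.8 in dehydrated arrays, against 77.1, 72.9, 86.8 and 74.5 in control arrays. At the other, dehydrated arrays had 72.3, 61.3, 75.9 and 98.4, and control arrays 115, 111, 93.2 and 139, so that dehydrated array 4 reached above control array 3.

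**Figure D4:**
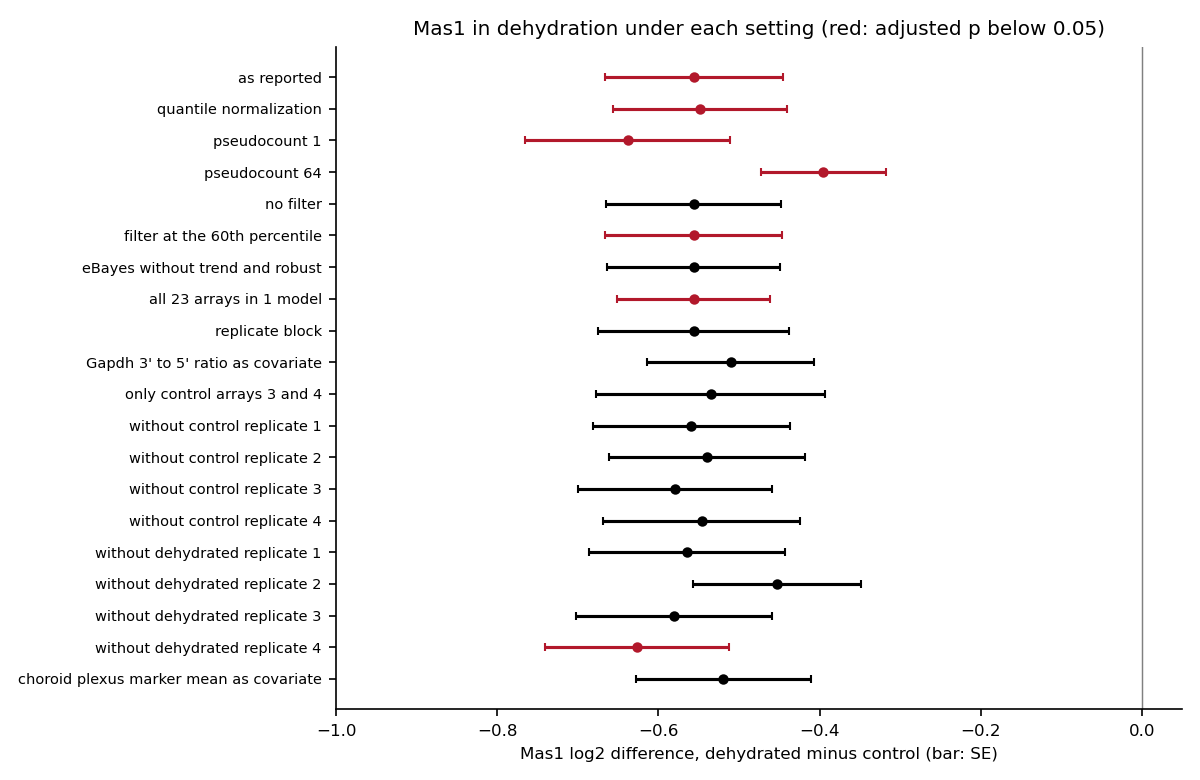
Mas1 log2 difference, dehydrated minus control (horizontal axis; bars are 1 SE), as reported and under 19 alternatives (rows); red passed at an adjusted p below 0.05. Every point lies between -0.64 and -0.40, and 6 of the 19 alternatives are red.

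In fasted against control rats 0 of the 7 member probe sets (5 genes) passed limma's test, where 0.0215% of all tested probe sets passed. An unadjusted p below 0.05 was reached by 2 tested members, both lower, against 7.19% of all tested, and 1 tested member did not overlap, against 2.32%. Agtr1b, which lay below the filter, did not overlap either and is not in this count. The tested member was Mas1, with 106.9, 99.1, 122, 91.3 and 104 in fasted arrays, all below the 124 of the lowest control array. Its log2 difference was -0.29 (SE 0.105, unadjusted p = 0.0123, adjusted p = 0.554). The other was the Agtrap probe set with the larger strain difference, at -0.33 (SE 0.119, unadjusted p = 0.0124, adjusted p = 0.554), while its partner was at 0.01 (adjusted p = 0.994). The median log2 difference was -0.10 over the members and 0.00 over all probe sets tested.

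In dehydrated against fasted rats 0 of the 7 member probe sets (5 genes) passed limma's test, where 0.0322% of all tested probe sets passed. An unadjusted p below 0.05 was reached by 2 members, both lower in dehydrated rats, against 10% of all tested, and arrays did not separate at any member, against 3.23%. These were Mas1 at -0.27 (unadjusted p = 0.0177, adjusted p = 0.406) and an Agtrap probe set at -0.27 (unadjusted p = 0.0212, adjusted p = 0.42). All 7 differences, in which Ace and Agtrap count at 2 probe sets each, were negative. Their median was -0.17 against -0.01 over all probe sets tested. Mas1 averaged 103 ± 6.95 in SHR, 126 ± 5.38 in WKY, 84.6 ± 14.6 in dehydrated, 105 ± 11.4 in fasted and 131 ± 5.36 in control arrays. Ranked downwards the order was control, WKY, fasted, SHR and dehydrated, in which strain and array set cannot be told apart. Control and WKY did not separate beyond their spread, nor did fasted and SHR.

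Other genes of the pathway were taken from 6 lists chosen by function. In these 2 of 44 genes tested passed between the strains (Stat3 and Nfia, below), a share near the 5.06% of all tested probe sets. In each Sprague Dawley comparison 0 of 46 passed. An unadjusted p below 0.05 was reached by 17.2% of all tested between the strains. For dehydrated minus control, fasted minus control and dehydrated minus fasted that share was 11.7%, 7.19% and 10%. Of 21 other enzymes and receptors that make, trim or bind angiotensins, 15 were measured and 7 tested in the strains. In limma 0 of these passed, and 0 had an unadjusted p below 0.05, with a median log2 difference of 0.02 against 0.01 over all probe sets tested. Atp6ap2, the renin receptor, averaged 1165 in SHR and 1141 in WKY (log2 difference 0.03), and Rnpep, an aminopeptidase, 532 in SHR and 512 in WKY (0.06); both were picked as examples after their values were seen. In Sprague Dawley rats 9 of the list were tested and 0 passed in limma in any of the 3 comparisons. Unadjusted p-values below 0.05 came to 1 gene for dehydrated minus control and 3 for dehydrated minus fasted, all lower in dehydrated rats, and 0 for fasted minus control. The 3 were Rnpep at -0.36 (adjusted p = 0.346), Prep, a prolyl endopeptidase, at -0.28 (adjusted p = 0.362) and Ctsd, cathepsin D, at -0.22 (adjusted p = 0.406), and the 1 was Prep at -0.24 (adjusted p = 0.376); they are named after their values were seen.

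Of 16 genes of type 1 receptor coupling and desensitisation tested, 0 passed in limma in any of the 4 comparisons. Between the strains 1 higher and 3 lower genes had an unadjusted p below 0.05, against 17.2% of all tested probe sets, with a median of -0.07. Arrb1, an arrestin that uncouples activated receptors, averaged 167 in SHR and 199 in WKY (log2 difference -0.23, adjusted p = 0.0563), and was singled out after its value was seen. Kallikrein and kinin genes (2 tested), partners of the type 2 receptor and Mas (2 tested) and mineralocorticoid genes (6 tested) also gave 0 calls between the strains, with 1 unadjusted p below 0.05, in the last list. These 3 lists gave 0 calls in the Sprague Dawley comparisons as well. Of 11 tested regulators of Agt transcription 2 passed between the strains, both lower in SHR, against 5.06% of all tested probe sets. Stat3, a cytokine-activated transcription factor, had 82.3 ± 11.2 in SHR and 170.4 ± 27.3 in WKY (log2 difference -0.92, SE 0.105, adjusted p = 2.06e-05). Nfia, a factor of astrocyte development, had 389 ± 27.6 in SHR and 479 ± 46.6 in WKY (log2 difference -0.29, SE 0.0728, adjusted p = 0.0279). Agt itself did not pass beside them, and 0 of these regulators passed in the Sprague Dawley comparisons, where 2 had an unadjusted p below 0.05 for dehydrated minus control, 2 for fasted minus control and 0 for dehydrated minus fasted.

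Genes with the most similar pattern were sought by Pearson correlation of log2 values over the 23 arrays among 10417 genes, and the values are descriptions, since the arrays share groups and scaling. For Agt the closest were Phgdh, a serine synthesis enzyme, at 0.93, Map3k20 at 0.93 and Fam32a at 0.92. With group means removed these dropped to 0.46, 0.67 and 0.46. Ace was closest to Adamts1 at 0.87, and to Slc13a4 at 0.86 and Slc23a2 at 0.85, a sulphate and an ascorbate transporter, and these held at 0.77, 0.74 and 0.76 with group means removed. Agtr1a was closest to Aftph, Ift172 and Srebf2 at 0.68, 0.67 and 0.60. Agtrap was searched only at the probe set with the larger strain difference, and was closest to Ccdc3 at 0.94, Actr8 at 0.92 and Creg1 at 0.89. With group means removed these fell to 0.59, 0.17 and -0.44. Mas1 was closest to Pycard, Rassf7 and Fkbp4 at 0.78, 0.77 and 0.76, and with group means removed these stood at 0.59, 0.77 and 0.37. Agtr1b and Agtr2 were below the signal filter over all arrays and were not searched.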

How the data were processed

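Each array held RNA pooled from 5 rats, amplified by a MessageAmp II kit. Linear signal intensities per probe set were deposited by the authors. Per the submitters' processing notes they came from GCOS 1.2, an Affymetrix program. Which settings it was run with is not given in the sources used here. After removal of 2% at each end every array averaged 100, so the values were used as deposited. Groups came from the sample titles, 0 columns lacked a sample, and 0 pairs of arrays were identical.

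From these, log2(signal + 16) was computed. The 57 control probe sets and those below the 40th percentile of mean signal in a fit were left out. The 10 SHR and WKY arrays were 1 fit and the 13 Sprague Dawley arrays another, with 3 contrasts, in limma 3.58.1 (R 4.3.3, lmFit, eBayes with trend and robust). Tests were two-sided, adjusted over all probe sets kept, with a threshold of 0.05. The log2 difference of Agtr1b and Agtr1a was compared by exact permutation over arrays. P-values measure the spread between pools, and the number of arrays limits the precision. Deviations of same-numbered arrays correlated at -0.17 to 0.06 in the Sprague Dawley comparisons. Between SHR and WKY they correlated at -0.01 to 0.27, with 2 of 5 pairs over 0.1. The labels name no pairs, and the numbers were not used to pair samples in the main fits.

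All member probe sets are described. Other genes are named where they pass in a list (at most 6 per list and comparison) or are among the 3 most like a member; exceptions are marked in the text. Members and lists were chosen with earlier results of these data known. The alternatives tried were pseudocounts of 1 and 64, quantile normalization, a filter at the 60th percentile or none, plain eBayes, a single model of all 23 arrays, a replicate block, a Gapdh ratio covariate, only control arrays 3 and 4 (arrays 1 and 2 carry a shorter label text), and each array left out. The script was tested on simulated data. Annotation, sequences and plots were handled in Python 3.11.15 (pandas 2.3.3, numpy 2.4.6, matplotlib 3.10.9, scipy 1.17.1).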

Additional observations from a re-analysis of the deposited data

Results flagged for a closer look

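Of the 55 sets of member values, 1 per probe set and group, 4 held an array far from the others, judged by its gap to the nearest array as a share of the whole range; chance gives such a gap in about 1 in 20 groups. For Agtr1b, fasted array 2 was lowest, at 7.92 against 15.5 for the next (share 0.712). At 1 Agtr2 probe set, WKY array 1 was lowest, at 13.7 against 27.4 (share 0.746), and dehydrated array 4 was highest, at 21.3 against 12.9 (share 0.858); Agtr2 lies below the filter. At the Agtrap probe set with the smaller strain difference, WKY array 4 was lowest, at 6.10 against 29.5 (share 0.802).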

How the results depend on the processing

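Over 527 alternative values for single member probe sets, 507 stayed on the same side of the threshold, 6 newly passed, 14 no longer passed, and 0 called values changed sign. An alternative in which a probe set fell below the filter gave no value, so calls lost in that way are not among the 14. For SHR minus WKY the count of 3 fell to 1 with a pseudocount of 1, where Agtr1b alone remained, and to 1 with the filter at the 60th percentile, where Mas1 alone passed (adjusted p = 0.0426) because Agtr1b and Agtrap were no longer tested. The count ran from 3 to 4 over the arrays left out in turn. In the single model of all 23 arrays Agtr1b fell below the filter and was not tested. With a pseudocount of 64, log2 differences were smaller for Agtr1b (0.41) and Agtrap (0.95 and 0.65). The Mas1 call between dehydrated and control rats fell to 0 without a filter (adjusted p = 0.082), with plain eBayes (0.0854), with the Gapdh ratio as covariate (0.06), with control arrays 3 and 4 alone (0.25) and with the choroid plexus covariate, which was chosen after seeing the data (0.0688); the cause was not tested. With the replicate block the count was also 0 (0.123), although the numbers are not known to pair the samples. Leaving out 1 array gave counts from 0 to 2, and adjusted p-values for Mas1 from 0.0312 to 0.158. Without dehydrated array 4 Mas1 passed and so did the Agtrap probe set with the larger strain difference (adjusted p = 0.0487). The counts for fasted minus control and dehydrated minus fasted were 0 under every alternative run. The strain difference of Agtr1b relative to Agtr1a was 1.32 with a pseudocount of 1 and 0.46 with one of 64, and ran from 0.77 to 1.00 with arrays left out (exact permutation p from 0.00794 to 0.0159). With so few arrays these p-values lie at or next to the smallest that the splits allow, so they add no support. Signals near the bottom of the range, as for Agtr2, limit what could be detected.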
